A study of Mus musculus with 84 samples.

Results

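Brain-derived neurotrophic factor, its relative neurotrophin 3 and the receptors that bind them were followed in neuronal nuclei of the mouse frontal cortex after a psychedelic drug. The 6 genes were Bdnf, Ntf3, Ntrk2, Ntrk3, Ngfr and Sort1, 6 of the 55401 gene IDs counted. They were chosen by name as the growth factors and receptors of this system, with earlier results of these data known, and matched by symbol. Of the 6, 5 passed the filter on low counts and were tested among 17941 genes, and Ngfr was under 3 counts in all 16 mice. With edgeR's test fitted over all 4 groups, 0 of the 5 passed in any comparison, while limma's voom with quality weights called 2 of them, Bdnf and Ntrk3, at 24 h, where it called 40.3% of all genes. The receptor gene Ntrk3 and the sorting receptor gene Sort1 were the only members whose 4 mice at 24 h lay wholly above or below the vehicle mice, which 35.7% of all genes did.

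The mice were 129S6/SvEvTac animals, 12 weeks old, and no genetic change is named in their labels. One group had received vehicle, and the other 3 groups had received 2,5-dimethoxy-4-iodoamphetamine (DOI), a hallucinogen that activates the serotonin 2A receptor, and were sampled 24 h, 48 h or 7 days later. Nuclei of the frontal cortex were sorted for NeuN, a protein of neuronal nuclei, and their RNA was sequenced in 4 mice per group with 2 libraries per mouse, so that 16 mice and 32 libraries were analysed. A further 52 samples, of H3K27ac chromatin and of chromatin input, were not analysed here. The vehicle mice were the control of all 3 DOI groups, so the 3 comparisons with vehicle share them. The labels name each mouse by number, so p-values measure the spread between numbered mice. The labels of the vehicle mice give no sampling time, so no vehicle group could be matched to each DOI time.

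Neurotrophins are secreted growth factors that are made as precursors and cut to their mature form. Mature BDNF signals through TrkB, the receptor tyrosine kinase encoded by Ntrk2, and neurotrophin 3 through TrkC, encoded by Ntrk3, and both receptors act through the Ras-ERK, PI3K-AKT and phospholipase C gamma branches. The p75 receptor encoded by Ngfr binds all neurotrophins and, with sortilin, encoded by Sort1, the uncut precursors. Sortilin also directs BDNF into the regulated secretory pathway. In the adult cortex Bdnf is made mainly by excitatory neurons and is an activity-regulated gene, while p75 is best known from cholinergic neurons of the basal forebrain, whose nuclei lie outside the cortex.

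Bdnf is transcribed from many starts, each with its own first exon joined to a shared coding exon, and the counts sum all of them. The RefSeq promoter table (GRCm38.p6) held 7 starts of Bdnf, 2 of Ntf3, 1 of Ntrk2 and 1 of Ngfr. The 250 bases before each start were searched for the half-site of the cAMP response element, TGACG or CGTCA, which are the 2 strands of 1 motif and are both parts of the full element TGACGTCA. A half-site was found before 1 of the 7 Bdnf starts, and none before the starts of Ntf3, Ntrk2 and Ngfr. Of all 32851 promoter windows of the same length in the table, 17.8% hold a half-site and 1.55% the full element. The window with the match lies before exon IV in the usual numbering, the start best known for its response to neuronal activity, and it is shown with the half-site in capitals, which begins at position -35 from the start. The window before the first start is shown because the first exons of Bdnf overlap the antisense gene Gm45346, and that of Ntrk2 because it drives the most counted member. The 3 windows are chr2:109674450-109674699, chr2:109692186-109692435 and chr13:58806319-58806568, all on the plus strand, and none holds a base of its own gene's exons in the files.
Bdnf start 1: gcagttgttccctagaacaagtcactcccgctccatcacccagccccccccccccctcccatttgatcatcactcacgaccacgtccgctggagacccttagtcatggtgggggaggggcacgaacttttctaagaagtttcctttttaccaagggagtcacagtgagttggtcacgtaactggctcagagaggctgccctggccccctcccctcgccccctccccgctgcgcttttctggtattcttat
Bdnf start 3: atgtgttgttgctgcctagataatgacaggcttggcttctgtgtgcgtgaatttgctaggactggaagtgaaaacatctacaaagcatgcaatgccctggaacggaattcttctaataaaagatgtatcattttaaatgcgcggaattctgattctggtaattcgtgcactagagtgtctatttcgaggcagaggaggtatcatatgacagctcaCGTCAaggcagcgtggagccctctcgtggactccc
Ntrk2 start 1: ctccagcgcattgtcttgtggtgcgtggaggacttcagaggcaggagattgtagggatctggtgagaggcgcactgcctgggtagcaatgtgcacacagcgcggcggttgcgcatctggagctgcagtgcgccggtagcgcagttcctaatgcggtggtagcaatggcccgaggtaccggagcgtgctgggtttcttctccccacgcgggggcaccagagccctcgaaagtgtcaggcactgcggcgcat
A match is a description of the letters, not a bound site, and the counts of whole genes carry no value for a single start.

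In the GRCm38 annotation of the files, Bdnf (ENSMUSG00000048482) lies on chromosome 2 at 109674700-109727007, plus strand, with 6217 exon bases. Ntf3 (ENSMUSG00000049107) lies on chromosome 6 at 126101412-126166910, minus strand, with 1714 exon bases. Ntrk2 (ENSMUSG00000055254) lies on chromosome 13 at 58806569-59133970, plus strand, and Ntrk3 (ENSMUSG00000059146) on chromosome 7 at 78175959-78738012, minus strand, with 19292 and 30170 exon bases. Ngfr (ENSMUSG00000000120) lies on chromosome 11 at 95568818-95587735, minus strand, and Sort1 (ENSMUSG00000068747) on chromosome 3 at 108284082-108361511, plus strand, with 3446 and 7569 exon bases. Reads were counted without strand, and reads on exons of several genes were left out. Gm45346, on the opposite strand, shares 896 of the Bdnf exon bases (14.4%), all in the first exons between 109674786 and 109676395, and Gm12523 shares 338 of the Sort1 exon bases (4.47%), so reads there were counted for neither gene. The counts of Ntrk2 and Ntrk3 sum the forms with the kinase domain and the truncated forms without it.

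Total counts per mouse ranged from 5834248 to 12354785, and the 24 h and 48 h mice were all shallower than the vehicle mice. Levels are given in CPM, the count divided by the scaled library size of the mouse. The smallest level taken as detectable, 3 counts, corresponded to between 0.254 and 0.502 CPM, for counting error only. The share of counts on Rn18s-rs5, a ribosomal RNA copy, was 0.00694% to 0.0101% in vehicle mice, 0.328% to 1.66% in all mice at 24 h and 48 h, and high again in 7-day mice 2 and 4 (0.633% and 0.474%) but not in mice 1 and 3. Every 24 h and 48 h mouse lay above every vehicle mouse in this share. A fit with the share as a covariate therefore cannot separate it from DOI at these times. No conclusion is drawn from such fits. The mitochondrial share of counts lay between 0.0171% and 0.0701% in vehicle mice, between 0.0621% and 0.101% in 24 h mice, between 0.108% and 0.268% in 48 h mice and between 0.0210% and 0.130% in 7-day mice. Summed pan-neuronal markers had medians of 5600 CPM in vehicle and 4707, 4999 and 4923 CPM at 24 h, 48 h and 7 days (3762 to 6002 CPM over all mice). Summed microglial markers had medians of 100.9, 66.4, 62.7 and 83.5 CPM in the same order (42.7 to 123.5 CPM over all mice). Astrocyte markers were present, with all 8 detected and 483 to 1147 CPM summed, and their values stand beside Ntrk2. In RNA of bulk nuclei, fewer nuclei of a type and less RNA per nucleus cannot be told apart. Throughout, a gene was taken as changed where edgeR's quasi-likelihood test gave an adjusted p below 0.05.

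Per exon length, the order of the mean levels over all mice was Sort1, Ntrk2, Ntrk3, Bdnf, Ntf3 and Ngfr. It was the same within each group except at 24 h, where Ntrk2 (36.25 CPM per kilobase) stood before Sort1 (32.3), while in vehicle Sort1 (40.04) stood before Ntrk2 (32.1). The lengths include the 14.4% of Bdnf and 4.47% of Sort1 exon bases counted for neither gene, so both genes are understated. At 7 days Bdnf (9.75) and Ntrk3 (11.3) lay close enough for this to affect their order. Over the 16 mice the mean was 36.95 CPM per kilobase for Sort1, 33.3 for Ntrk2, 11.96 for Ntrk3, 8.42 for Bdnf, 1.32 for Ntf3 and 0.0120 for Ngfr. Sort1 and Ntrk2 were not separate, since Sort1 was the higher in 10 of 16 mice and their ranges overlapped. Ntrk2 stood above Ntrk3 in 16 of 16 mice with no overlap of the ranges (23.0 to 44.2 against 7.99 to 16.3 CPM per kilobase). Ntrk3 exceeded Bdnf in 14 of 16 mice and their ranges overlapped, while every value of Bdnf (4.64 to 15.8) lay above every value of Ntf3 (0.0816 to 4.2). The ratio of Ntrk2 to Ntrk3, both per kilobase, ran from 2.01 in a 7-day mouse to 3.94 in a vehicle mouse.

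**Figure D1:**
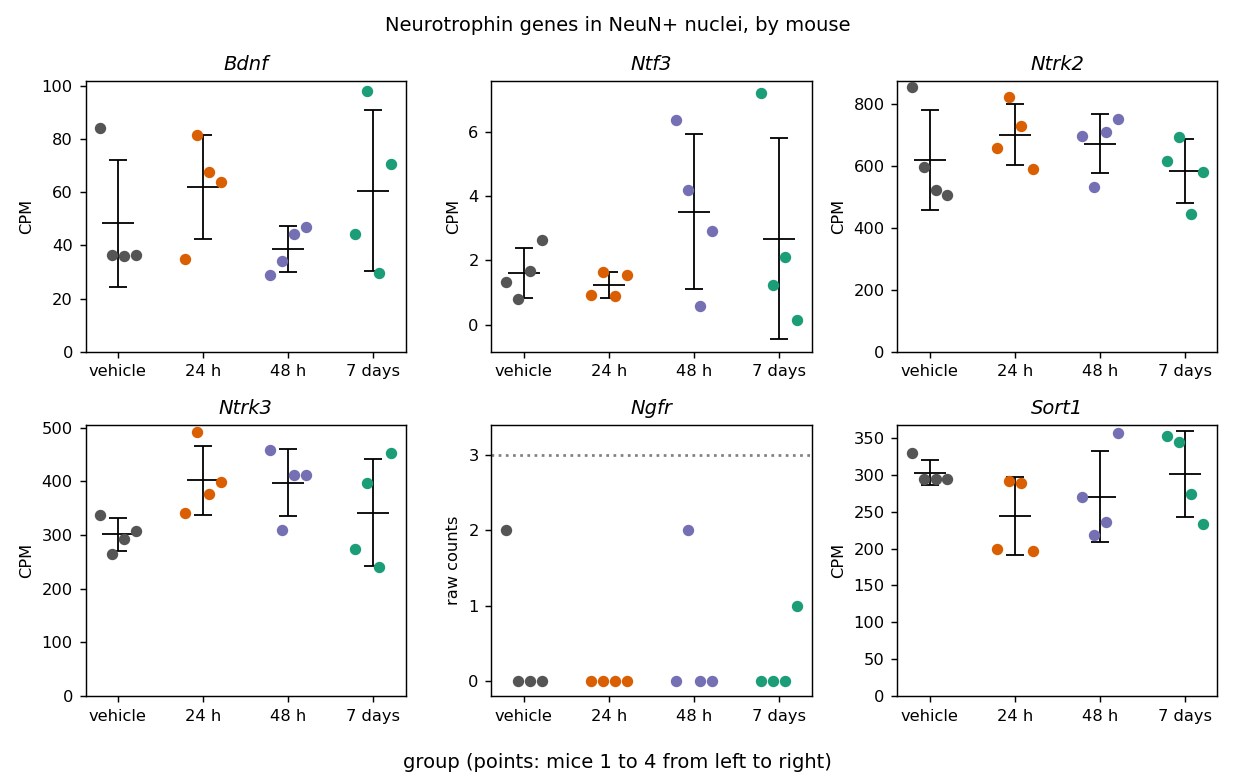
Level of each neurotrophin gene in every mouse, in CPM (raw counts for Ngfr, with a dotted line at 3 counts), for vehicle and for 24 h, 48 h and 7 days after DOI. Points are mice 1 to 4 from left to right, and bars are the mean with the SD of 4 mice, drawn for all genes except Ngfr. Bdnf of vehicle mouse 1 (84.2 CPM) stands far above the other 3 vehicle mice, and all 24 h mice lie above the vehicle mice for Ntrk3 and below them for Sort1.

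At 24 h, 0 of the 5 tested members passed the test, where 24.2% of all genes did (4346 of 17941). At 48 h it was 0 of 5 against 30.1% of all genes, and at 7 days 0 of 5 against 0% of all genes (3012 of which had an unadjusted p below 0.05, and 796 of which DESeq2 called). In the test of any difference among the 4 groups it was 0 of 5 against 18.8%. No member had an unadjusted p below the 0.05 line in any of the 6 comparisons of 2 groups with edgeR, the smallest being 0.0532 with an adjusted p of 0.136. DESeq2 also called 0 members in all 6 comparisons, where it called 30.2%, 35.3% and 4.44% of all genes against vehicle at 24 h, 48 h and 7 days, with 1 at an unadjusted p below 0.05 at 24 h and 1 at 48 h, both Ntrk3. Limma's voom with quality weights called 2 of 5 members at 24 h, 0 at 48 h and 0 at 7 days, where it called 40.3%, 43.4% and 0% of all genes. In the test of any difference it called 2 of 5 members and 39.7% of all genes. Fits of only the groups compared called 1 of 5 at 24 h and 1 of 5 at 48 h, where 36.7% and 41.5% of all genes tested there passed. At 24 h, 2 of the 5 members had mice that did not overlap vehicle, where 35.7% of all genes did. They were 1 higher and 1 lower, where 18.5% and 17.2% of all genes stood clear of vehicle in those directions. At 48 h and 7 days 0 of 5 did, where 38.1% and 5.85% of all genes did. The median log2 fold change of the 5 members was 0.18 at 24 h, 0.12 at 48 h and 0.18 at 7 days, beside 0.03, 0.02 and 0.02 over all genes tested.

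Bdnf, the ligand of TrkB, did not pass the test at any time, and its spread was wide in each group but 48 h. In vehicle it was 84.2, 36.4, 36.2 and 36.3 CPM in mice 1 to 4, so 3 mice lay close together and mouse 1 stood far above them. At 24 h it was 35.0, 81.4, 67.7 and 63.9 CPM, with mouse 1 at the level of the lower vehicle mice and the other 3 above it. The 48 h mice gave 28.8, 34.0, 44.5 and 46.9 CPM, and at 7 days 44.1, 98.2, 29.5 and 70.7 CPM, the widest spread of the 4 groups. The groups overlapped at every time. The mean and SD of 4 mice were 48.3 ± 24.0 CPM in the vehicle group and 62.0 ± 19.5 CPM at 24 h, then 38.6 ± 8.58 CPM at 48 h and 60.6 ± 30.3 CPM after 7 days. At 24 h the log2 fold change was 0.36 (SE 0.35, adjusted p = 0.47), a ratio of 1.28 with a 95% interval of 0.770 to 2.14. At 48 h it was -0.32 (SE 0.35, adjusted p = 0.507) and at 7 days 0.33 (SE 0.35, adjusted p = 0.666). Leaving out vehicle mouse 1 moved these values, and without it the log2 fold change was 0.77 at 24 h (adjusted p = 0.133) and 0.09 at 48 h (adjusted p = 0.871). With each mouse left out in turn, the 24 h value ran from 0.20, without 24 h mouse 2, to that 0.77. With voom's quality weights, Bdnf was 0.76 higher at 24 h on the log2 scale and passed (adjusted p = 0.0124). At 7 days the 2 higher mice, 2 and 4, were those with the high Rn18s-rs5 share, and without mouse 2 the log2 fold change was -0.0086. Summed markers of striatal projection neurons, a cell type outside the cortex, were also highest in these 2 mice. With all 8 markers detected in each group, they were 1721 and 1164 CPM in 7-day mice 2 and 4 and 598 and 364 CPM in mice 1 and 3, beside 244 to 416 CPM in vehicle, 169 to 287 CPM at 24 h and 283 to 548 CPM at 48 h. Their part in the 7-day values was not tested. With the Rn18s-rs5 share as a covariate, a fit that cannot separate the share from DOI at 24 h, the value turned to -1.09 (24 h, adjusted p = 0.961). Summed markers of excitatory neurons, the main source of Bdnf in cortex, with all 6 detected, were 459.5 to 515 CPM in vehicle, 919 to 2383 CPM at 24 h, 1430 to 2172 CPM at 48 h and 423 to 1368 CPM at 7 days, and their part in the Bdnf values was not tested. Summed markers of inhibitory neurons, with all 7 detected, were 2755, 1909, 1386 and 1570 CPM in vehicle mice 1 to 4. They were 1719, 2232, 2285 and 2472 CPM at 24 h and 2729, 1768, 2492 and 2130 CPM at 48 h. At 7 days they were 2052, 2814, 1417 and 2654 CPM, and their part in the Bdnf values was not tested.

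Ntf3, the ligand of TrkC, was near the limit of detection. In vehicle it was 1.32, 0.796, 1.67 and 2.63 CPM, and at 24 h 0.914, 1.64, 0.888 and 1.54 CPM, so the 24 h mice lay inside the vehicle range. The 48 h mice held 6.37, 4.19, 0.593 and 2.93 CPM, and at 7 days 7.20, 1.23, 2.10 and 0.140 CPM. The last of these was a single count, the only mouse in which Ntf3 was under 3 counts. In both late groups mouse 1 held the highest value, and each group also held a mouse below all vehicle mice. Log2 fold changes were -0.37 at 24 h (SE 0.79, adjusted p = 0.762), 1.12 at 48 h (SE 0.77, adjusted p = 0.275) and 0.75 at 7 days (SE 0.76, adjusted p = 0.646). The 95% interval at 48 h ran from a ratio of 0.710 to 6.67, which covers a lower level and a level several fold higher alike. Without 7-day mouse 1 the 7-day value turned to -0.45.

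Ntrk2, which encodes TrkB, was the most counted member, with 3176 to 9032 counts per mouse. In vehicle it was 853, 595, 521 and 505 CPM, and mouse 1, the mouse with the high Bdnf, was again the highest. At 24 h it was 658, 821, 728 and 591 CPM, at 48 h 695, 532, 710 and 750 CPM, and at 7 days 615, 694, 443 and 581 CPM. All DOI groups overlapped vehicle, and only the single mouse of 443 CPM at 7 days lay below its range. The ratio to vehicle was 1.13 at 24 h (95% interval 0.848 to 1.51, adjusted p = 0.535), 1.09 at 48 h (0.814 to 1.45, adjusted p = 0.676) and 0.943 at 7 days (0.707 to 1.26, adjusted p = 0.858). TrkB is also made by astrocytes, chiefly in its truncated form. Summed astrocyte markers were 656 to 719 CPM in vehicle, 760 to 1147 CPM at 24 h, 640 to 1119 CPM at 48 h and 483 to 763 CPM at 7 days, and their part in the Ntrk2 values was not tested.

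Ntrk3, which encodes TrkC, had the smallest p of the members against vehicle and did not pass. In vehicle it was 338, 266, 293 and 308 CPM, and at 24 h 341, 492, 377 and 399 CPM. The 24 h mice lay above all vehicle mice, the lowest of them only just (341 against 338 CPM). The 48 h mice stood at 458, 309, 412 and 412 CPM, with 3 mice above the vehicle range and mouse 2 inside it. At 7 days it was 275, 398, 241 and 452 CPM, with mice 2 and 4 above the vehicle range, mouse 3 below it and mouse 1 inside it. Mice 2 and 4 were again those with the high Rn18s-rs5 share, the high striatal markers and the high excitatory markers (1368 and 1222 CPM, beside 465 and 423 CPM in mice 1 and 3). The excitatory markers were also above vehicle in all 24 h and 48 h mice, and the part of these measures in the Ntrk3 values was not tested. The fit with the Rn18s-rs5 share, given last, cannot separate that share from DOI at 24 h and 48 h. The log2 fold change was 0.42 at 24 h (SE 0.20, adjusted p = 0.136), 0.40 at 48 h (SE 0.20, adjusted p = 0.137) and 0.18 at 7 days (SE 0.20, adjusted p = 0.678). As ratios these were 1.34 (95% interval 0.996 to 1.79), 1.32 (0.984 to 1.77) and 1.13 (0.845 to 1.52). Ntrk3 passed at 24 h with voom's quality weights (adjusted p = 0.00679), and at 24 h and 48 h when only the 2 groups compared were fitted (adjusted p = 0.0431 and 0.0384). With the Rn18s-rs5 share as a covariate the values turned to -0.43 at 24 h and -0.49 at 48 h (adjusted p = 0.961 and 0.996).

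Ngfr, which encodes the p75 receptor, gave 5 counts in all 16 mice together and was not tested. Vehicle mouse 1 had 2 counts, 48 h mouse 2 had 2 counts, 7-day mouse 4 had 1 count, and 13 mice had 0. All 16 values were under 3 counts, so a level up to 0.254 to 0.502 CPM, depending on the depth of the mouse, could not be told from 0, and no fold change is given.

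Sort1, which encodes sortilin, did not pass at any time. In vehicle it was 329, 294, 295 and 294 CPM, the tightest group of any tested member (303 ± 17.4 CPM, SD, n = 4, a coefficient of variation of 5.74%). At 24 h it was 200, 291, 289 and 197 CPM, all below the vehicle mice, with 2 mice just under them and 2 well under. Values at 48 h were 270, 218, 235 and 357 CPM, with 3 mice below the vehicle range and mouse 4 above it. At 7 days it was 354, 345, 274 and 233 CPM, on both sides of vehicle. The ratio to vehicle was 0.806 at 24 h (95% interval 0.605 to 1.07, adjusted p = 0.255), 0.892 at 48 h (0.670 to 1.19, adjusted p = 0.546) and 0.994 at 7 days (0.747 to 1.32, adjusted p = 0.986).

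**Figure D2:**
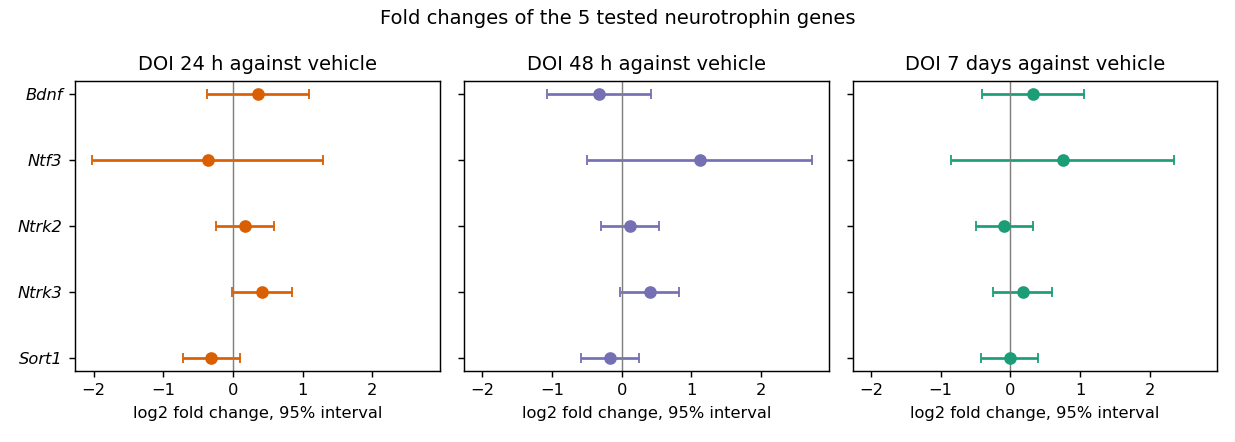
Log2 fold change of the 5 tested neurotrophin genes against vehicle at 24 h, 48 h and 7 days, with 95% intervals from the edgeR fit of 16 mice. Every interval includes 0, that of Ntrk3 at 24 h by the smallest margin (-0.0064 to 0.84), and the intervals of Ntf3 are the widest.

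Between the DOI times 0 of the 5 members passed, where 0%, 0.00557% and 0% of all genes did for 48 h against 24 h, 7 days against 24 h and 7 days against 48 h. Members with an unadjusted p below 0.05 were also 0 in these comparisons with edgeR and with DESeq2, while voom gave 1 for 48 h against 24 h. Bdnf was lower at 48 h than at 24 h by a ratio of 0.622 (95% interval 0.371 to 1.04, unadjusted p = 0.0690, adjusted p = 1), with 24 h mouse 1 inside the 48 h range. Bdnf at 7 days against 48 h gave a ratio of 1.57 (0.938 to 2.63, adjusted p = 0.362). Ntf3 gave a ratio of 2.8 at 48 h against 24 h (0.884 to 8.89, unadjusted p = 0.0772, adjusted p = 1). Ntrk2, Ntrk3 and Sort1 had log2 fold changes between -0.26 and 0.30 in these comparisons.

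The spread between mice was larger than that between the 2 libraries of a mouse for every tested member. For Bdnf the SD of log2 CPM between libraries was 0.13 and that between mice of a group 0.58. For Ntrk2 the pair was 0.042 and 0.27, for Ntrk3 0.037 and 0.31, for Sort1 0.065 and 0.27. Ntf3 differed most between libraries, with 0.56 against 1.00. Bdnf of vehicle mouse 1 had 533 and 359 counts in its libraries, beside 164 and 156 counts in vehicle mouse 2. The counts of Ngfr came from 1 library in each of its 3 mice, and Ntf3 had 4 and 0 counts in the libraries of 48 h mouse 3 and 0 and 1 in those of 7-day mouse 4.

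Several annotated features inside the introns of the receptor genes passed the test at 24 h or 48 h, when their host genes did not pass. In all, 11 other features lie inside or overlap a member, 9 of them share no exon base with it, and 6 of these 9 passed the filter. At 24 h, 4 of the 6 passed the test, 3 higher and 1 lower, where 24.2% of all genes did, 13.8% higher and 10.4% lower. At 48 h it was 5 of 6, 4 higher and 1 lower, where 30.1% did, 16.8% higher and 13.3% lower. Nothing is read from these counts against the shares of all genes. Gm47423, Gm34245 and Gm44607, all 3 of the higher calls at 24 h and 3 of the 4 at 48 h, were near 0 in vehicle (means of 0.489, 0.582 and 0.1445 CPM) and passed the filter on low counts only through the DOI mice in which they were high. At 7 days edgeR called 0 of 6, with 4 at an unadjusted p below 0.05, DESeq2 called 2 (Gm47423 and Gm44607) and voom 0. The 7-day calls of these 2 features turned on single mice. Without 7-day mouse 1, edgeR called both Gm47423 (adjusted p = 0.0106) and Gm44607 (adjusted p = 0.00726), and without 7-day mouse 3 as well (adjusted p = 0.0112 and 0.0113). Without a filter on low counts it also called both (adjusted p = 1.6e-08 and 5.5e-09). The features were chosen for their place. Since the counting did not use strand, reads from unspliced RNA of the host gene would be counted for them, and how many were was not tested.

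Gm47423 lies inside Ntrk2 on the opposite strand (chromosome 13, 58824218-58826994). It was 0.567, 0.114, 1.28 and 0 CPM in vehicle and 30.5, 12.7, 15.3 and 36.3 CPM at 24 h. At 48 h it was 9.71, 13.2, 25.2 and 6.52 CPM, so both groups lay wholly above vehicle. The log2 fold change was 5.53 at 24 h (SE 1.06, adjusted p = 0.00329) and 4.74 at 48 h (SE 1.05, adjusted p = 0.00448), against a vehicle level near 3 counts, which leaves the fold imprecise (95% interval 9.88 to 217 at 24 h). At 7 days mice 1 and 3 were at 0.932 and 0.350 CPM and mice 2 and 4 at 10.4 and 25.1 CPM (log2 fold change 4.15, adjusted p = 0.0960). Gm34245 (59075440-59078296), also antisense to Ntrk2, had a log2 fold change of 3.12 at 24 h (adjusted p = 0.0270) and 3.6 at 48 h (adjusted p = 0.0120). Its direction turned with the Rn18s-rs5 share as a covariate, to -0.87 at 24 h and -0.91 at 48 h (adjusted p = 0.974 and 0.996). At 24 h its adjusted p was 0.0511 to 0.0775 without vehicle mouse 1, 2, 3 or 4 or 24 h mouse 1 or 4, each left out alone.

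C630044B11Rik lies inside Ntrk2 on the same strand (58812153-58814363) and fell. Its log2 fold change was -1.84 at 24 h (SE 0.42, adjusted p = 0.00671) and -1.57 at 48 h (SE 0.42, adjusted p = 0.0113), and at 48 h it was no longer past the threshold without vehicle mouse 3 (-1.08, adjusted p = 0.0569). In the fit without covariates Gm47423 and Gm34245 were higher and C630044B11Rik lower, and the exons of Ntrk2 gave ratios of 1.13 and 1.09. Gm47423 and Gm34245 passed the filter on low counts only through the DOI mice in which they were high. Nothing about Ntrk2 is read from this contrast. C630044B11Rik, fitted with the Rn18s-rs5 share as a covariate, was -0.58 at 24 h and -0.23 at 48 h and did not pass (adjusted p = 0.968 and 0.997).

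Gm44607 lies inside Ntrk3 on the same strand (chromosome 7, 78211610-78212699). It was 0.189, 0, 0 and 0.389 CPM in vehicle and 23.6, 11.5, 7.10 and 20.2 CPM at 24 h. Values at 48 h were 17.5, 32.3, 16.5 and 9.04 CPM, and at 7 days 0, 8.07, 0 and 19.0 CPM. The log2 fold change was 6.57 at 24 h (SE 1.35, adjusted p = 0.00400), 6.84 at 48 h (SE 1.36, adjusted p = 0.00262) and 5.34 at 7 days (adjusted p = 0.0960). The vehicle mean, 0.1445 CPM, lay below the level of 3 counts, so the size of these folds is imprecise (95% interval of the ratio 13.3 to 678 at 24 h) and depends on the prior count of the fit. The 7-day mice 2 and 4, in which Gm47423 and Gm44607 were high, were the 2 mice of that group with the high Rn18s-rs5 share, the high striatal markers and the high excitatory markers (1368 and 1222 CPM, beside 465 and 423 CPM in mice 1 and 3). The excitatory sum was also above all vehicle mice in every 24 h and 48 h mouse, and the part of these markers in the values of the features was not tested. With the Rn18s-rs5 share as a covariate the 24 h values were 1.64 for Gm47423 and 2.32 for Gm44607, and neither passed (adjusted p = 0.961). At 48 h they were 0.51 for Gm47423 and 2.34 for Gm44607 (adjusted p = 0.996). Gm9885, antisense within Ntrk3 (78578830-78581038), passed at no time, with log2 fold changes of -0.22 at 24 h, -0.73 at 48 h and -0.89 at 7 days (unadjusted p = 0.0212, adjusted p = 0.215). All its 48 h and 7-day mice lay below all vehicle mice, the highest 7-day mouse at 5.42 CPM and the lowest vehicle mouse at 5.74 CPM. Gm43099, inside Sort1 on the same strand (chromosome 3, 108287881-108293121), was higher at 48 h (log2 fold change 1.20, SE 0.37, adjusted p = 0.0212) and at 24 h gave 1.01 (adjusted p = 0.0525). At 24 h Gm43099 lay close to the threshold and passed with DESeq2 (adjusted p = 0.0216), voom (0.00903), RLE factors (0.0497), total counts (0.0379), the strict filter (0.0422) and a fit of only the groups compared (0.0320). Its 48 h call was lost without a filter (adjusted p = 0.12) and in library 1 alone (adjusted p = 0.117). The 48 h call was also lost without vehicle mouse 1 (adjusted p = 0.0612), vehicle mouse 4 (adjusted p = 0.0501) or 48 h mouse 3 (adjusted p = 0.0609).

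**Figure D3:**
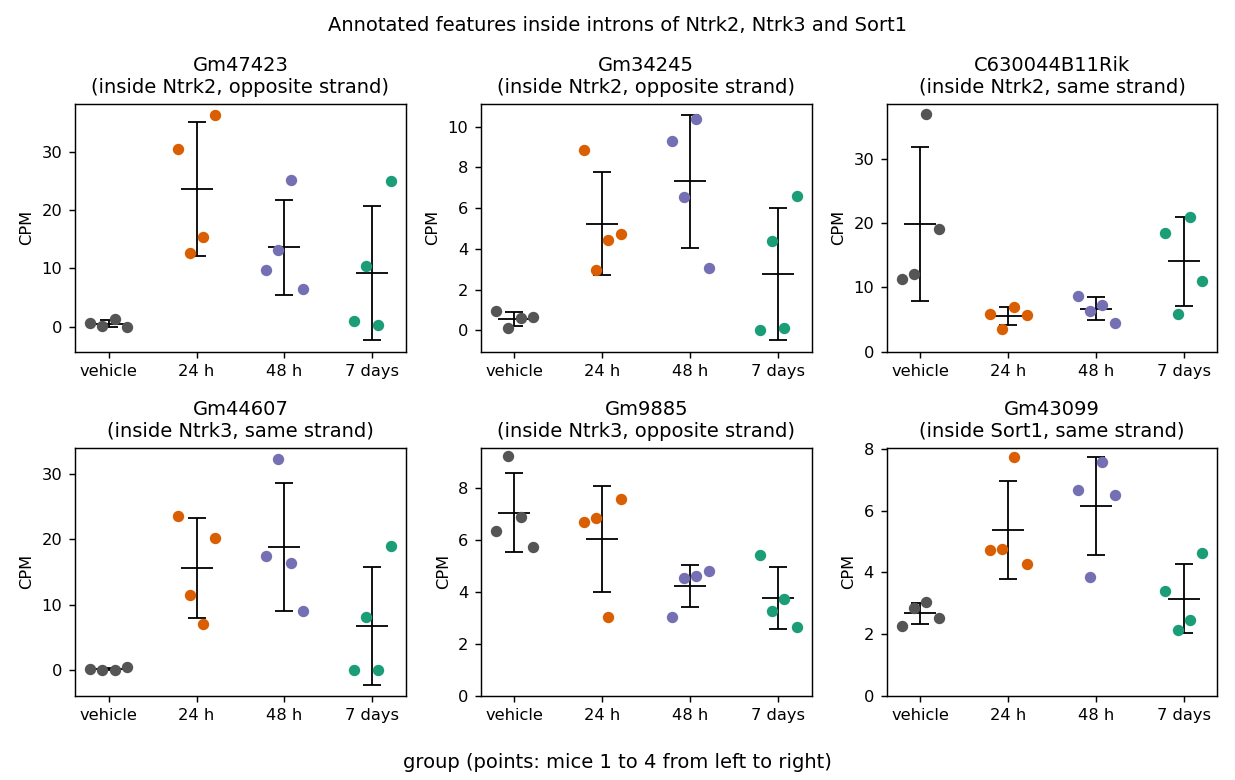
Level in CPM, by mouse, of the 6 tested features inside introns of Ntrk2, Ntrk3 and Sort1, for vehicle and for 24 h, 48 h and 7 days after DOI. Points are mice 1 to 4 from left to right and bars the mean with the SD of 4 mice. Gm47423, Gm34245 and Gm44607 lie above all vehicle mice at 24 h and 48 h and, at 7 days, only in mice 2 and 4.

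The genes whose profile over the 16 mice was most like that of each member were ranked by the root mean square difference of centred log2 CPM, over 8382 protein-coding genes of at least 4 log2 CPM (8383 for Ntf3). For Ntrk2 the closest was Atp1b1, a subunit of the sodium-potassium pump (difference 0.12, beside an SD of Ntrk2 itself of 0.25), followed by Nell1 (0.17). For Ntrk3 they were Gpr26, an orphan receptor (0.13), and Vezt, a junction protein (0.14), beside an SD of 0.30. For Sort1 they were Fam168b (0.14) and Sdf4 (0.14), beside an SD of 0.27. For Bdnf the closest were Tmem59 (0.34) and Sdf2 (0.36), beside an SD of 0.56. For Ntf3 they were Vwa3a (0.78) and Wdsub1 (0.80), beside an SD of 1.07, so its closest profiles were still far. All profiles share the libraries, their depth and their scaling.

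The other genes of the pathway were read from 10 lists with 95 genes, of which 91 were tested. At 24 h, 24 of the 91 passed (26.4%), 11 higher and 13 lower, where 24.2% of all genes did. At 48 h, 30 of the 91 passed (33.0%), 13 higher and 17 lower, where 30.1% did. At 7 days edgeR called 0 of 91, where 0% of all genes passed, with 11 at an unadjusted p below 0.05, while DESeq2 called 2 and voom 0. Their median log2 fold change was 0.11, 0.17 and 0.10, beside 0.03, 0.02 and 0.02 for all genes. The shares of the pathway thus lay near those of all genes. The lists were chosen with earlier results of these data known, so nothing is read from the share of a list against that of all genes. With libraries scaled by total counts alone, which moved the median of all genes to 0.14 at 24 h and 0.12 at 48 h, the split was 13 higher and 10 lower at 24 h and 13 higher and 14 lower at 48 h. The 24 h count was 11 without vehicle mouse 1, 15 without vehicle mouse 2, 13 without vehicle mouse 4 and 12 without 24 h mouse 4, and the 48 h count was 19 without 48 h mouse 2. The count of all genes fell in the same fits. At 24 h it went from 4346 to 2576, 2595, 2961 and 2550 in that order, and at 48 h from 5395 to 3733. With the Rn18s-rs5 share as a covariate, which cannot be separated from DOI at these times, the pathway count was 0 at both times, as it was for all genes.

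Among ligands, receptors and their processing, Ntf5, the gene of neurotrophin 4, was too low to test. Of the sorting receptor genes related to Sort1, Sorcs2 passed at 48 h (log2 fold change 1.01, adjusted p = 0.0227), while Sorcs1, Sorcs3 and Sorl1 passed at no time. Of the 10 tested processing and secretion genes, 3 passed at 24 h (30%, beside 24.2% of all genes), all lower, where 10.4% of all genes were lower. Cpe, a carboxypeptidase and sorting protein of secretory granules, was -0.76 at 24 h (adjusted p = 0.0303) and -0.91 at 48 h (adjusted p = 0.0106). Serpini1, which encodes neuroserpin, was -0.94 at 24 h (adjusted p = 0.0156), and this call was lost without vehicle mouse 1 (adjusted p = 0.0537) or 24 h mouse 4 (adjusted p = 0.0534). At 48 h, 4 of the 10 passed (40%, beside 30.1% of all genes), 3 lower and 1 higher. The one higher was Furin, a protease that cuts proneurotrophins, which was 1.33 at 48 h (adjusted p = 0.00587) and 0.86 at 24 h (adjusted p = 0.0507).

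Downstream of the receptors, 3 of the 18 adaptor and trafficking genes passed at 24 h (16.7%, beside 24.2% of all genes), all higher, where 13.8% of all genes were higher. At 48 h 5 of the 18 passed (27.8%, beside 30.1%), 4 higher and 1 lower. Htt, which encodes huntingtin and takes part in the transport of BDNF vesicles, had a log2 fold change of 1.13 at 24 h (adjusted p = 0.00400) and 1.16 at 48 h (adjusted p = 0.00276). Slitrk5, a transmembrane protein that binds TrkB, was 0.92 higher at 24 h (adjusted p = 0.00661). In the Ras-ERK branch 6 of 16 passed at 24 h (37.5%, beside 24.2% of all genes), 2 higher and 4 lower, and 7 of 16 at 48 h (43.8%, beside 30.1%), 1 higher and 6 lower. Rps6ka1, a kinase activated by ERK, was -2.30 at 24 h (adjusted p = 0.0168, and 0.0538 without 24 h mouse 4) and -2.75 at 48 h (adjusted p = 0.00655). In the PI3K-AKT branch 5 of 9 passed at each of the 2 times (55.6%, beside 24.2% of all genes at 24 h and 30.1% at 48 h), 1 higher and 4 lower. Of the calls over all genes, 57% were higher at 24 h and 55.8% at 48 h. Nothing is read from these shares, since the lists were chosen with earlier results of these data known. Among the lower genes, Pik3cb, a catalytic subunit of the PI3 kinase, was -0.94 at 24 h (adjusted p = 0.0167, and 0.0535 without vehicle mouse 3) and Pik3r1, a regulatory subunit, -0.87 at 48 h (adjusted p = 0.00645).

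In the phospholipase C gamma, p75, BDNF response and Bdnf factor lists the share called was 18.2% to 25% at 24 h and 18.2% to 33.3% at 48 h, beside the same 24.2% and 30.1% of all genes. The phospholipase C gamma list had 1 of 4 higher at both 24 h and 48 h. The list of p75 adaptors had 2 of 9 lower at both times, and the list of genes known to respond to BDNF had 2 of 9 higher at 24 h and, at 48 h, 2 higher and 1 lower. Of 11 factors known to act at Bdnf, 2 passed at 24 h and at 48 h, both higher. Crtc1, a coactivator of CREB, was 46.3 to 55.0 CPM in the vehicle mice, 97.9 to 208.6 CPM at 24 h and 111.6 to 182 CPM at 48 h, with no overlap. Its log2 fold change was 1.76 at 24 h (SE 0.27, adjusted p = 0.00159) and 1.69 at 48 h (SE 0.27, adjusted p = 0.00155). Bdnf itself did not pass at these times.

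**Figure D4:**
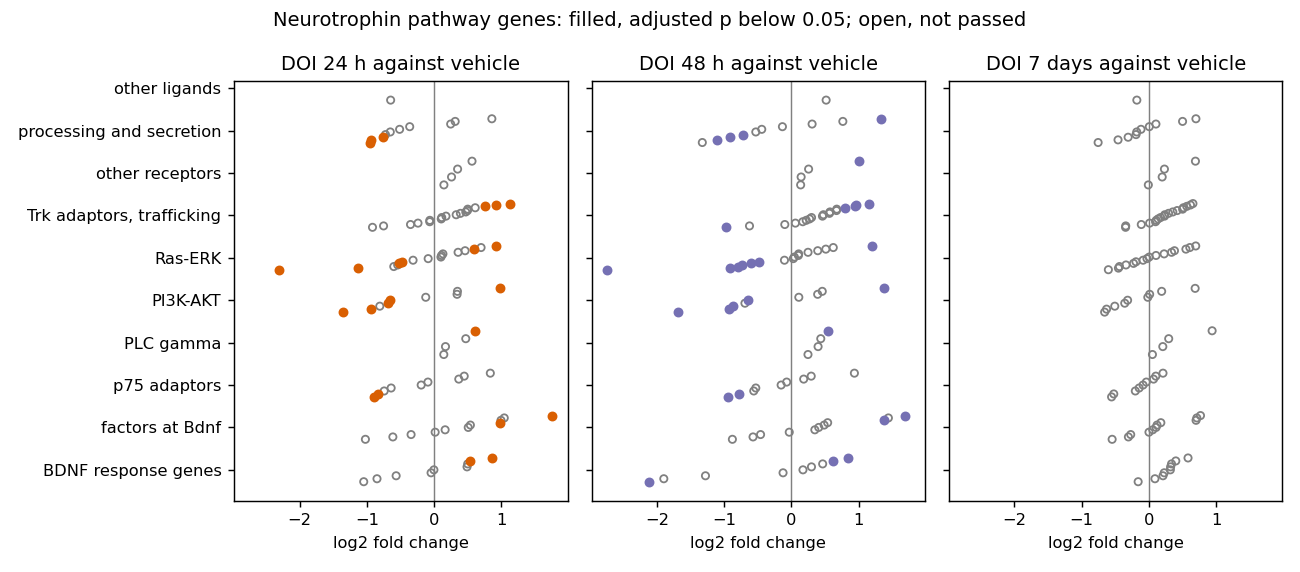
Log2 fold change against vehicle of the 91 tested pathway genes in 10 lists, at 24 h, 48 h and 7 days after DOI. Each point is a gene, filled where the adjusted p was below 0.05. Filled points lie on both sides of 0 at 24 h (11 higher, 13 lower) and 48 h (13 higher, 17 lower) and there are 0 at 7 days.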

How the data were processed

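Per the file headers, the authors counted reads over the exons of each Ensembl gene of GRCm38 with featureCounts 2.0.0, with no option for strand, multi-mapping reads or overlapping features, and the deposited values are these raw counts for 32 libraries. Trim Galore 0.6.5 is named in the submitters' processing notes. The aligner of the RNA reads is not given in the sources used here.

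Each mouse had 2 libraries, whose counts were added up. For 3 mice the header carried another mouse number than the label, and the label was used. Of 55401 gene IDs, 99.5% had a symbol in the table given. Genes were filtered with filterByExpr, scaled with TMM factors and fitted in 1 model over the 4 groups with edgeR 4.0.16 (R 4.3.3, glmQLFit and glmQLFTest), with Benjamini-Hochberg adjustment over all 17941 genes. Intervals of 95% come from that fit. Precision follows from depth, given in the report as totals per mouse and as the CPM of 3 counts, and from 4 mice per group. Alternatives used DESeq2 1.42.0, limma 3.58.1 (voom), other scaling, filters and libraries, covariates, a replicate block and mice left out. Promoter sequences are RefSeq's.

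The members and gene lists were chosen with earlier results of these data known. Of the pathway lists, up to 4 genes with the smallest p per direction were named where they passed, otherwise the gene with the smallest p. Some of these genes are not reported here, and the counts of the lists include them. The 2 most alike genes per member were named.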

Additional observations from a re-analysis of the deposited data

Results flagged for a closer look

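For 2 of 20 sets of 4 values (5 members, 4 groups) a single mouse stood apart, by Dixon's ratio of its gap to the whole range. About 1 in 20 sets, or 1 here, is met by chance. Bdnf of vehicle mouse 1 was 84.2 CPM, and the nearest vehicle mouse was at 36.4 CPM. Sort1 of vehicle mouse 1 was 329 CPM, and the nearest vehicle mouse was at 295 CPM. Both are the same mouse, and the report gives the values of Bdnf without it.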

How the results depend on the processing

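The call of 0 members held at every time with DESeq2, other scaling, other filters, each library alone, both covariates and each mouse left out. It moved with voom, which called 2 at 24 h and 2 in the test of any difference, and in fits of only the groups compared, which called 1 at 24 h and 1 at 48 h, Ntrk3 both times. With the mouse number as a replicate block 0 members were called in all comparisons, and the pathway counts were 19 at 24 h, 27 at 48 h and 0 at 7 days. Same-numbered mice were different animals, and the correlation of their deviations was -0.036 on average (-0.28 to 0.24 over 24 pairs), so the number does not pair them.

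At 24 h voom called 44 pathway genes and 7236 genes in all. At 7 days DESeq2 called 2 and 796, and without a filter 1 and 958. With the Rn18s-rs5 share as a covariate the pathway and all-gene counts were 0 at 24 h and 0 at 48 h, and these log2 fold changes turned: at 24 h Bdnf -1.09, Ntf3 2.09, Ntrk2 -0.21, Ntrk3 -0.43, Rps6ka1 0.22, Gm34245 -0.87 and Gm9885 0.33. At 48 h they were Ntrk2 -0.29, Ntrk3 -0.49 and Gm34245 -0.91, and at 7 days Bdnf -0.40, Ntrk3 -0.22 and Gm34245 -1.01. The share was high in all 24 h and 48 h mice and in 2 of 4 at 7 days, and the cause was not tested. No vehicle mouse reached the share of any 24 h or 48 h mouse, so this fit cannot separate the share from DOI at these times.

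With 1 mouse left out, pathway counts at 24 h ran from 11 to 19. Those at 48 h ran from 19 to 26, and those of the 7-day group from 0 to 6, the last being 6 without 7-day mouse 1 and 5 without mouse 3. Counts of all genes at 24 h ran from 2550 to 3933, at 48 h from 3514 to 4899, and for the 7-day group from 0 to 1342. They were lowest at 24 h without 24 h mouse 4 (2550), vehicle mouse 1 (2576) or mouse 2 (2595), lowest at 48 h without vehicle mouse 1 (3514) or mouse 2 (3586), and highest at 7 days without mouse 1 (1342) or mouse 3 (1160).

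Log2 fold changes with 1 mouse left out ran for Bdnf from -0.45 to 0.09 (0.090 without vehicle mouse 1) at 48 h and from -0.0086 to 0.74 at 7 days. At 7 days they ran for Ntf3 from -0.45 to 1.13, for Ntrk2 from -0.18 to 0.11, for Sort1 from -0.090 to 0.098 and for Gm43099 from -0.0032 to 0.38. Without vehicle mouse 1 Ntrk2 at 7 days was 0.11, and without 7-day mouse 3 it was 0.032. Sort1 at 7 days, at -0.0085, turned to 0.0044 with DESeq2, 0.0043 with RLE factors, 0.016 with the strict filter, 0.011 with detected genes as a covariate, 0.042 in library 1, 0.025 with only the groups compared, 0.045 with total counts and 0.0015 with voom. Others that turned were Bdnf at 7 days (-0.0068) without the 3 mice with another header number, an alternative chosen after seeing the data, Ntf3 at 24 h (0.17) in library 1, Gm43099 at 7 days (-0.022) in library 2, and with voom Ntrk2 (0.023) and Gm34245 (-0.12) at 7 days. Depth limits Ngfr and Ntf3.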
